A study of Mus musculus with 24 samples.

Results

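Inflammatory signalling in the hippocampus was followed through 10 genes of the 47593 in the count table, chosen by name: the IL-1 family receptors Il1rl1 and Il1r1, the cytokines Il1b and Tnf, the chemokines Ccl2, Ccl3 and Ccl4, the adhesion molecule Icam1, the complement component C3 and the lysozyme Lyz2. Il1rl1 and C3 were picked because they differed between genotypes in these libraries, so their genotype differences are given as a description, with no test. RNA sequencing covered hippocampi of male C57BL/6J mice aged 8 to 12 weeks, in 8 groups of 3 mice. Wild-type (WT) and Tob knockout (Tob-KO) mice were each taken naive or at 15 min, 1 h or 3 h after fear conditioning. This training paired a tone with electric foot shocks in a chamber. Every library came from whole hippocampal tissue, and no promoter or cell type restricting the knockout is named. Fewer cells of a type and less RNA per cell therefore cannot be told apart.

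IL-1 beta and TNF are made mainly by microglia and other myeloid cells, bind receptors on neurons, glia and blood vessels, and switch on NF-kappaB, which raises chemokines and adhesion molecules that recruit leukocytes. Il1r1 encodes the receptor that transmits the IL-1 signal, whereas Il1rl1 encodes ST2, the receptor of the alarmin IL-33. In healthy brain these cytokines are scarce, and acute stress is one of the stimuli studied for raising them.

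Library totals were 28847989 to 41595972 counts, with a median of 31169386. The targeted gene, Tob1, was higher, not lower, in every library labelled Tob-KO, at 52.0 to 68.6 CPM against 33.7 to 44.4 CPM in WT, where CPM are counts scaled to a common library size. Directions below therefore refer to libraries labelled Tob-KO. Transcripts of choroid plexus, the secretory tissue that borders the hippocampus, divided the libraries. A score over 13 choroid plexus markers lay between -3.20 and -2.02 in 10 libraries and between 0.30 and 2.87 in the other 14, as the mean log2 CPM of the markers relative to all libraries. All 3 WT libraries at 15 min were in the low set and all 3 libraries labelled Tob-KO at 1 h in the high set. The 10 markers of hippocampal neurons and the 10 of microglia had counts in all 24 libraries.

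Levels per kilobase of annotated exon differed over a wide range. Lyz2, an antibacterial enzyme of macrophages and granulocytes, was highest at 4.47 ± 1.04 CPM per kb (SD, n = 24), followed by Il1r1 at 2.46 ± 0.496. Lyz2 exceeded Il1r1 in 24 of 24 libraries, and Il1r1 exceeded Icam1 in 24 of 24. Icam1 (0.449 ± 0.112 CPM per kb) and C3 (0.373 ± 0.173) did not separate, with Icam1 higher in 16 of 24 libraries. Below them came Ccl3 at 0.174, Il1b at 0.108, Ccl4 at 0.0658, Il1rl1 at 0.0444, Ccl2 at 0.0408 and Tnf at 0.00930 CPM per kb. These neighbours overlapped too: Ccl4 lay above Il1rl1 in 12 libraries of 24, and Il1rl1 above Ccl2 in 13. A count of 3 corresponded to between 0.0721 and 0.104 CPM, so the lowest members were at the limit of this depth.

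None of the 8 members that were not picked by genotype met the study's criteria for a genotype difference at any time point, which asked for an FDR up to 0.05 together with a change of 2-fold or more in edgeR's exact test. Recomputed here, those criteria called 0.0218% of all tested genes in naive mice, 0.555% at 15 min, 0.033% at 1 h and 0.0274% at 3 h. The 3 libraries of one genotype lay wholly above or below the 3 of the other for 1 of these 8 in naive mice (Il1r1, where 11.5% of tested genes did), 0 at 15 min (13.7%), 2 at 1 h (Lyz2 and the untested Ccl2, where 11.6% did) and 0 at 3 h (12%). Of the 10 members, 5 passed the filter on low counts in naive mice and at 1 h (Il1rl1, Il1r1, Icam1, C3 and Lyz2). Il1b passed as well at 15 min and 3 h. The shares without overlap cover only genes past this filter, whereas the 8 include members below it. Among the members that could be tested, other than Il1rl1 and C3, the difference with the smallest FDR was that of Lyz2 at 1 h.

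The interleukin receptors were the first group. Il1rl1 (chromosome 1, 40429570 to 40465415, forward strand, GRCm38) had 2 to 22 counts per library. In naive mice it had 5, 2 and 12 counts in WT and 9, 12 and 9 in the libraries labelled Tob-KO, and the groups overlapped. At 15 min the counts were 11, 3 and 4 in WT and 6, 14 and 22 in Tob-KO, again with overlap. At 1 h they were 5, 8 and 3 against 12, 14 and 17, and at 3 h 3, 3 and 12 against 17, 15 and 21. At both later times the lowest Tob-KO library exceeded the highest WT library. On the log2 scale the difference was 0.65 ± 0.60 (SE) in naive mice, 1.01 ± 0.54 at 15 min, 1.63 ± 0.41 at 1 h and 1.47 ± 0.49 at 3 h. Single libraries moved these values: without WT replicate 3 the naive difference was 1.54 and without WT replicate 2 it was 0.24, at 15 min it was 1.69 without WT replicate 1 and 0.67 without Tob-KO replicate 3, and at 3 h it was 2.39 without WT replicate 3. Averaged over the 4 time points it was 1.19 ± 0.27, from 0.182 ± 0.116 CPM (SD, n = 12) in WT to 0.430 ± 0.130 in Tob-KO. These are the values by which the gene was picked.

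The transcript of its ligand, Il33, named here after its values were seen, was far more abundant, at 53.7 ± 4.17 CPM in WT and 56.6 ± 5.67 CPM in Tob-KO (SD, n = 12 each).

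**Figure D1:**
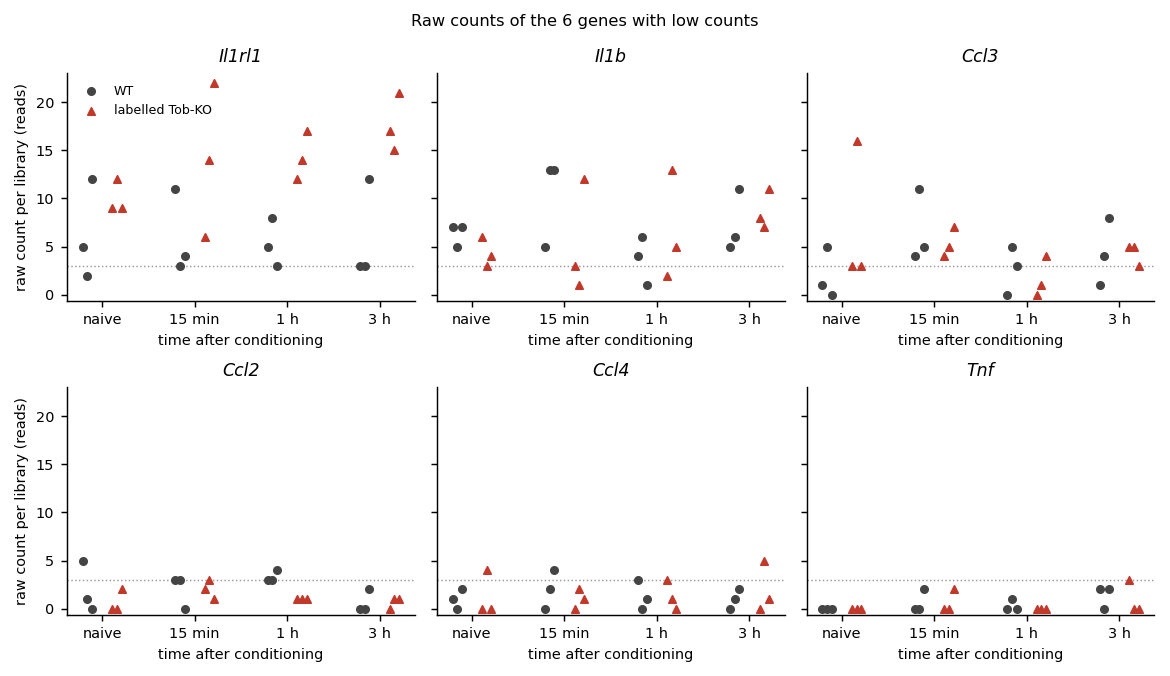
Raw counts per library (y axis, reads) of the 6 members with low counts by time after conditioning (x axis), with WT as circles and libraries labelled Tob-KO as triangles, 3 per group; the dotted line marks 3 counts. Il1rl1 separates the genotypes at 1 h and 3 h, whereas Il1b and Ccl3 overlap at every time, and most Tnf libraries are at 0.

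Il1r1 (chromosome 1, 40225080 to 40317257, forward strand) was well covered, with 366 to 730 counts per library. In naive mice it measured 11.5, 14.5 and 13.4 CPM in WT and 15.9, 22.9 and 17.6 CPM in those labelled Tob-KO. The groups did not overlap. The log2 fold change was 0.52 ± 0.15 (SE), and it failed the correction (edgeR exact test, unadjusted p = 0.00418, FDR = 0.898). In the naive libraries of the low choroid plexus set Il1r1 was 13.4 CPM in WT and 15.9 CPM in Tob-KO, and in the high set 11.5 and 14.5 CPM in WT against 22.9 and 17.6 CPM in Tob-KO.

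At 15 min Il1r1 was 13.5, 13.4 and 15.1 CPM in WT and 14.2, 19.3 and 10.4 CPM in Tob-KO, with a broad overlap. At 1 h the WT libraries had 20.3, 13.8 and 14.6 CPM and those labelled Tob-KO 20.0, 19.8 and 18.6 CPM. A single WT library of 3 lay above all the Tob-KO libraries, and the other WT libraries lay below them. At 1 h the log2 fold change was 0.26 ± 0.13 (exact test, FDR = 0.997), and without that library, WT replicate 1, it was 0.46 with an FDR of 0.000447, still under the fold limit. WT replicate 1 was also the single WT library at 1 h with a choroid plexus score in the Tob-KO range, at 2.06 against 1.85 to 2.35. The WT libraries kept in that fit scored -2.28 and 0.67, and the part of tissue content in its value was not tested. At 3 h the levels were 13.3, 16.8 and 15.3 CPM in WT and 12.1, 16.4 and 13.7 CPM in Tob-KO, which overlapped.

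The difference of Il1r1 between genotypes was lower at 3 h than in naive mice by 0.63 ± 0.26 on the log2 scale (edgeR quasi-likelihood test of the interaction, unadjusted p = 0.0245, FDR = 0.894), so this change failed the correction. Across the series Il1r1 stayed between 13.4 and 16.4 CPM in the 10 libraries of the low choroid plexus set, with a median of 14.0, and ranged from 10.4 to 22.9 CPM in the 14 of the high set, with a median of 17.2. The part of choroid plexus tissue in these values was not tested. The genes most like Il1r1 over the 24 libraries, of 19460 searched, were Napepld, Susd6 and Paqr9 (Pearson's r of 0.86, 0.86 and 0.85 of log2 CPM, Spearman's rho of 0.86, 0.84 and 0.83). Library composition is shared by all such points.

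**Figure D2:**
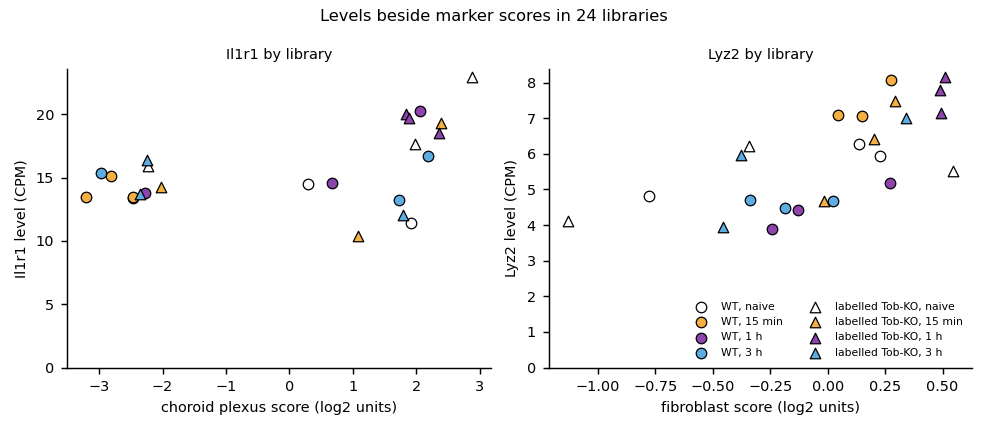
Il1r1 level (CPM) against the choroid plexus score, and Lyz2 level (CPM) against the fibroblast score, with each of the 24 libraries as a point, WT as circles and Tob-KO as triangles, filled by time point. Il1r1 exceeds 16.4 CPM only among libraries with a choroid plexus score above 0, and the 3 Lyz2 values labelled Tob-KO at 1 h lie among the highest fibroblast scores.

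The cytokines were close to the detection limit. Il1b (chromosome 2, 129364570 to 129371139, reverse strand), the secreted ligand of Il1r1, had 1 to 13 counts per library. It had 7, 5 and 7 counts in naive WT and 6, 3 and 4 in naive Tob-KO mice. At 15 min there were 5, 13 and 13 counts in WT against 3, 1 and 12 in Tob-KO, so 1 library labelled Tob-KO lay within the WT range. At 15 min the log2 fold change was -1.19 ± 0.70 and did not pass (exact test, unadjusted p = 0.0969, FDR = 0.777), and it was -2.36 without Tob-KO replicate 3 and -0.70 without Tob-KO replicate 2. At 1 h the counts were 4, 6 and 1 against 2, 13 and 5, and at 3 h 5, 6 and 11 against 8, 7 and 11. No time point separated the genotypes. The antisense gene Il1bos overlaps Il1b and had 0 to 6 counts per library, and the strand setting of the counting is not given, so reads of the pair may not be told apart.

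Neutrophil and monocyte markers, another source of Il1b transcripts, were scarce. The summed level of the 8 markers at 15 min was 4.88, 0.926 and 1.19 CPM in WT replicates 1, 2 and 3. It was 0.423 to 0.663 CPM in Tob-KO at 15 min, and 0.249 to 1.27 CPM in all other groups. The part of these cells in the Il1b counts was not tested. Of that list S100a8, a granulocyte calcium-binding protein, was lower in Tob-KO at 15 min. The difference was 3.16 ± 0.64 on the log2 scale, with an FDR of 0.00314 in the exact test. S100a8 was at 0.0555 ± 0.0238 CPM in Tob-KO, under the level of 3 counts, against 0.523 ± 0.331 CPM in WT (SD, n = 3). S100a8 therefore passed the filter on low counts only through WT, where it was high, and its FDR is given as a description. It missed the threshold without Tob-KO replicate 2 (FDR = 0.0624) or Tob-KO replicate 3 (FDR = 0.0526). Red cell markers were lower in the same comparison for 5 of 5 genes, with 1 that passed, Alas2, an enzyme of haem synthesis, by 1.39 ± 0.28 on the log2 scale (exact test, FDR = 0.00325, and 0.0508 without Tob-KO replicate 2). Their summed level was 69.1 to 133 CPM in WT and 41.1 to 55.7 CPM in Tob-KO, and the part of blood left in the tissue was not tested. Choroid plexus markers were higher in Tob-KO in this comparison for 13 of 13 genes, and 12 passed. The largest log2 differences were those of Ttr (6.89 ± 1.37), Slc4a5 (6.86 ± 1.49), Tmem72 (6.25 ± 1.33) and Kcne2 (6.13 ± 1.35). In WT, Slc4a5 and Kcne2 were close to the level of 3 counts. The low choroid plexus set held all 3 WT libraries and 1 of 3 Tob-KO libraries at 15 min.

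Tnf (chromosome 17, 35199381 to 35202007, reverse strand) was read 12 times in 24 libraries and was at 0 in 18 of them. All 6 naive libraries were at 0, which allows up to 3 counts in each. After conditioning single libraries reached 2 counts at 15 min in both genotypes, 1 count at 1 h in WT, 2 counts at 3 h in each of 2 WT libraries and 3 counts at 3 h in 1 library labelled Tob-KO. A change of Tnf was not detectable at this depth, and no fold change is given.

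Of the chemokines, which attract monocytes and other leukocytes, Ccl3 had the most counts. Ccl3 (chromosome 11, 83647844 to 83649355, reverse strand) had 1, 5 and 0 counts in naive WT mice and 3, 16 and 3 in naive Tob-KO mice. It had 4, 11 and 5 against 4, 5 and 7 at 15 min, 0, 5 and 3 against 0, 1 and 4 at 1 h, and 1, 4 and 8 against 5, 5 and 3 at 3 h. The genotypes overlapped at each time. The 16 counts of naive Tob-KO replicate 2 were the highest of the series, and this library carried the interaction values: the genotype difference at 15 min minus that in naive mice was -2.33 ± 1.25 on the log2 scale (quasi-likelihood test, unadjusted p = 0.0755, FDR = 0.981) and -1.07 without it.

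Ccl4 (chromosome 11, 83662584 to 83664683, forward strand), which lies next to Ccl3, had 0 to 5 counts, and 9 of 24 libraries were at 0. Ccl2 (chromosome 11, 82035571 to 82037453, forward strand), the main attractant of monocytes, also had 0 to 5 counts, and 7 of 24 libraries were at 0. At 1 h Ccl2 had 3, 3 and 4 counts in WT and 1, 1 and 1 in the libraries labelled Tob-KO, 10 against 3 counts in sum. The groups did not overlap, but the gene was under the filter and was not tested. The predicted gene Gm17268, on the opposite strand of Ccl2, had no counts in any library.

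Icam1 (chromosome 9, 21015985 to 21028817, forward strand), which holds leukocytes on activated endothelium, had 42 to 100 counts per library. It was 2.22, 1.70 and 1.78 CPM in naive WT mice and 1.5, 2.76 and 1.68 CPM in naive Tob-KO mice. At 15 min it was 1.34, 3.43 and 2.05 CPM in WT and 1.82, 2.42 and 2.35 CPM in Tob-KO, and the WT libraries alone spanned the range of both. The genotypes also overlapped at 1 h (1.37 to 1.77 CPM against 1.63 to 2.10 CPM) and at 3 h (1.45 to 2.18 CPM against 1.47 to 2.48 CPM). Its genotype difference averaged over time was smaller than its standard error, with a 95% interval of -0.20 to 0.39 on the log2 scale. The group means of Icam1 lay within 1.42-fold of each other. Icam1 was most like Ctdnep1, Tgfbr2 and Micu2 over the 24 libraries, with r of 0.76, 0.73 and 0.73.

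C3 (chromosome 17, 57203970 to 57228136, reverse strand), the central component of the complement cascade, had 18 to 167 counts per library. In naive mice it measured 0.870, 1.67 and 0.891 CPM in WT and 2.42, 3.46 and 2.36 CPM in those labelled Tob-KO, without overlap. At 15 min it measured 0.935, 2.50 and 0.577 CPM in WT and 2.02, 3.32 and 4.0 CPM in Tob-KO. Only WT replicate 2 reached into the Tob-KO range. At 1 h WT mice had 2.11, 2.03 and 1.38 CPM and Tob-KO mice 1.80, 1.53 and 2.0 CPM, so that the groups coincided. At 3 h WT mice had 1.88, 1.38 and 1.22 CPM and Tob-KO mice 1.06, 3.16 and 1.47 CPM, with the Tob-KO libraries lying on both sides of WT.

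C3 had a log2 fold change of 1.26 ± 0.30 (SE) in naive mice, 1.23 ± 0.46 at 15 min, -0.05 ± 0.21 at 1 h and 0.34 ± 0.39 at 3 h. The genotype difference at 1 h was thus lower than in naive mice by 1.32 ± 0.60, given without a test because the gene was picked for its genotype difference. The median of C3 was 1.75 CPM in the low choroid plexus set and 1.84 CPM in the high set, which hold different groups, and the part of choroid plexus tissue in C3 was not tested. Its closest genes were Cdh26, Sncg and Lect1 (r of 0.81, 0.81 and 0.80).

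**Figure D3:**
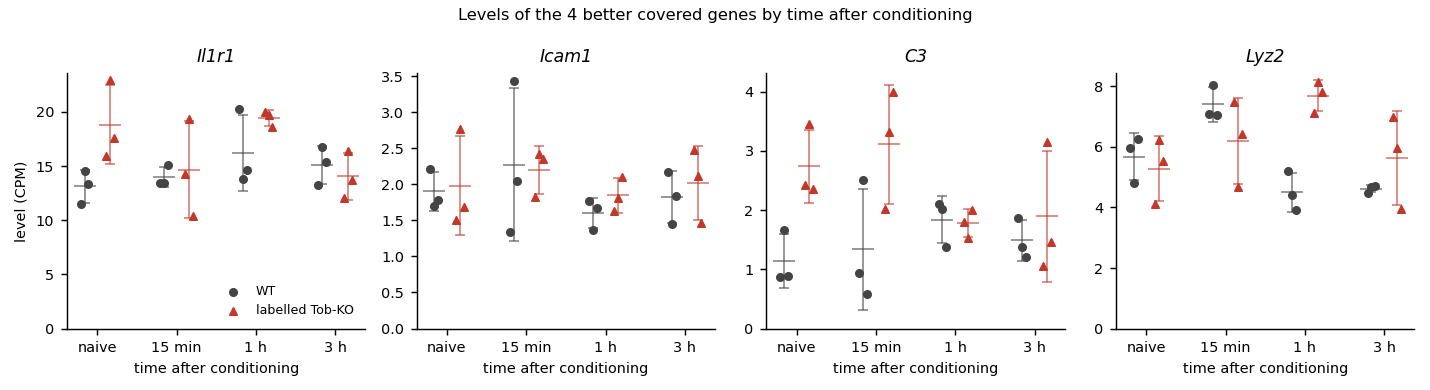
Levels (y axis, CPM) of Il1r1, Icam1, C3 and Lyz2 by time after conditioning (x axis), with each of 3 libraries per group as a point, WT as circles and Tob-KO as triangles, and bars for the mean ± SD. Il1r1 and C3 do not overlap between genotypes in naive mice, and Lyz2 does not overlap at 1 h.

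Lyz2 (chromosome 10, 117277331 to 117282321, reverse strand) was the member with the clearest tested difference between genotypes. At 1 h it measured 5.19, 4.41 and 3.90 CPM in WT and 7.13, 8.16 and 7.80 CPM in those labelled Tob-KO. The groups did not overlap. Their log2 fold change was 0.77 ± 0.13, a 1.71-fold difference, with an FDR of 0.00105 in edgeR's exact test, and it missed the study's call because of the 2-fold limit. By FDR alone, a criterion added after the data were seen, 0.121% of genes were called at 1 h and Lyz2 was the only member among them. The FDR was 0.00420 in DESeq2 and 0.371 in edgeR's quasi-likelihood test of the same libraries, so the call depends on the test.

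At the other times Lyz2 overlapped between genotypes. It measured 5.95, 4.82 and 6.27 CPM in naive WT and 4.12, 6.22 and 5.52 CPM in naive Tob-KO mice. At 15 min it was 7.10, 8.06 and 7.05 CPM against 7.49, 4.68 and 6.42 CPM, and at 3 h 4.49, 4.67 and 4.71 CPM against 7.0, 5.95 and 3.95 CPM. The difference at 1 h exceeded that in naive mice by 0.88 ± 0.27 on the log2 scale, which failed the correction (quasi-likelihood test, unadjusted p = 0.00373, FDR = 0.999). The near-identical gene Lyz1 had 0 to 4 counts per library, and how reads shared by the pair were counted is not given.

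Several cell types that could hold Lyz2 were followed at 1 h by their markers. Microglia, which form most of the myeloid cells of brain tissue, had a summed marker level of 345 to 362 CPM in WT and 341 to 359 CPM in Tob-KO over 10 markers. Border macrophages, the macrophages of meninges, vessels and choroid plexus, had 27.0 to 31.4 CPM in WT and 33.7 to 41.1 CPM in Tob-KO over 8 markers, and fibroblasts had 148 to 279 CPM in WT and 291 to 313 CPM in Tob-KO over 8 markers. The groups did not overlap in either sum, and no marker of either list was at 0 in any library. By the study's criteria 0 of 8 border macrophage and 0 of 8 fibroblast markers passed, and by FDR alone 0 and 3. The sums of astrocyte markers (5158 to 5521 CPM in WT, 4622 to 4801 CPM in Tob-KO) and of oligodendrocyte markers (5542 to 6355 CPM in WT, 5188 to 5318 CPM in Tob-KO) did not overlap either, and were lower in Tob-KO. Neutrophil and monocyte markers had 0.472 to 0.733 CPM in WT and 0.633 to 1.27 CPM in Tob-KO. The gene most like Lyz2 over the 24 libraries was the fibroblast collagen gene Col1a1 (r of 0.82, rho of 0.78), followed by Tpm4 (r of 0.80) and Efemp1 (r of 0.78). The part of these cells in the Lyz2 difference was not tested. WT replicate 2 was the single 1 h library with a choroid plexus score below 0. Without it the log2 fold change of Lyz2 was 0.75 with an FDR of 0.0270 in the exact test. The other WT libraries still scored 2.06 and 0.67, against 1.85 to 2.35 in Tob-KO. The part of choroid plexus tissue in the Lyz2 difference was not tested.

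**Figure D4:**
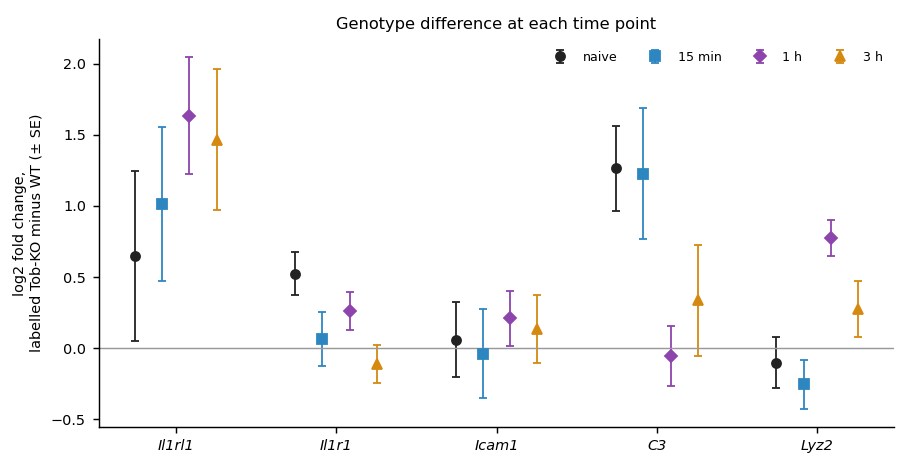
Log2 fold change of the libraries labelled Tob-KO over WT (y axis) at each time point for the 5 members past the filter on low counts at all 4 times, with bars for the standard error and 6 libraries per point. Il1rl1 and C3 were picked for these differences; among the others Lyz2 at 1 h, at 0.77, is the largest.

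Averaged over the 4 time points, no member that could be tested passed an FDR of 0.05 (edgeR quasi-likelihood test over 24 libraries), where 0.421% of genes did. Il1r1 had a log2 fold change of 0.18 ± 0.09 (unadjusted p = 0.0564, FDR = 0.383) and Lyz2 of 0.17 ± 0.09 (unadjusted p = 0.0833, FDR = 0.437). The interactions of genotype with time called 0% of genes at each time, with 4.82%, 4.15% and 4.74% of genes at an unadjusted p below 0.05, in order of time. DESeq2 called 0 genes in each of these interactions as well.

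The change after conditioning was tested as the mean over both genotypes against naive mice, a contrast that the choice of Il1rl1 and C3 did not use. The 3 time points share the 6 naive libraries. Of the 7 members that passed the filter over 24 libraries, 0 passed an FDR of 0.05 at 15 min, where 4.35% of genes did, 0 at 1 h, where 5.89% of genes did, and 0 at 3 h, where 0% of genes did and 8.95% had an unadjusted p below 0.05. DESeq2 called 0 members and 22 genes at 3 h. Lyz2 came nearest at 15 min, with a log2 fold change of 0.30 ± 0.13 (quasi-likelihood test, unadjusted p = 0.0341, FDR = 0.204). Tnf, Ccl2 and Ccl4 were too low to be tested.

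The intervals show what size of change these libraries could have missed. For Il1r1 the 95% interval of the log2 fold change reached from -0.41 to 0.13 at 15 min, from -0.09 to 0.44 at 1 h and from -0.38 to 0.16 at 3 h. The upper bounds are 1.10-fold, 1.36-fold and 1.12-fold above naive mice. Those of Lyz2 were 1.49-fold, 1.30-fold and 1.13-fold, and those of Icam1 1.53-fold, 1.18-fold and 1.32-fold. For C3 the upper bounds were 1.77-fold, 1.57-fold and 1.47-fold. The genes with low counts had far wider intervals, up to 2.63-fold at 15 min and 3.00-fold at 3 h for Il1b, and up to 3.63-fold at 15 min for Ccl3. At 3 h Il1b had a log2 fold change of 0.63 ± 0.46 (unadjusted p = 0.178, FDR = 0.689). For Il1b and Ccl3 a rise of 2-fold was therefore not excluded at 15 min or 3 h. Nor was it for Il1rl1 at 3 h, where the upper bound was 2.31-fold.

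**Figure D5:**
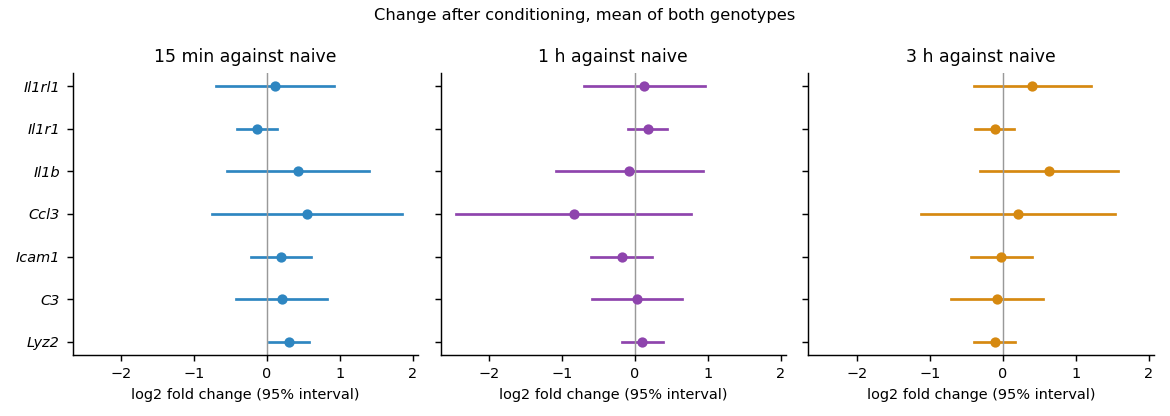
Log2 fold change against naive mice (x axis), with a panel for each of the 3 times, as the mean of both genotypes over 12 libraries per contrast within a fit of 24, with lines for the 95% interval, for the 7 members tested. Every interval but that of Lyz2 at 15 min includes 0, and those of Il1b and Ccl3 are the widest.

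Related genes of the same pathways were counted beside the members. Of the IL-1 family ligands, receptors and adaptors 0 of 17 tested passed in any genotype or time comparison, and of the TNF receptors and adaptors 0 of 10. Among the NF-kappaB subunits and inhibitors 1 of 14 passed: Chuk, which encodes the kinase IKK-alpha, fell by 0.23 ± 0.06 on the log2 scale at 15 min against naive mice (quasi-likelihood test, FDR = 0.0411), a call kept in 11 of 31 alternative settings. Chemokines and their receptors gave 0 of 16 in the comparisons over 24 libraries and 0 of 13 or 14 in those of genotypes. Complement genes other than C3 gave 0 of 12 in each comparison, and their median log2 difference between genotypes was 0.22 in naive mice, 0.01 at 15 min, 0.35 at 1 h and -0.05 at 3 h. The median over all genes tested lay between -0.01 and 0.01 at each time.

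Among 8 leukocyte adhesion genes Icam2, an endothelial ligand of leukocyte integrins, rose at 15 min, with a log2 fold change of 0.67 ± 0.16 against naive mice (quasi-likelihood test, FDR = 0.0195). Its level went from 1.01 ± 0.112 to 1.57 ± 0.0948 CPM in WT and from 1.10 ± 0.00937 to 1.78 ± 0.123 CPM in Tob-KO (SD, n = 3). Of 9 endothelial markers 7 had values above naive mice in the same comparison and 4 passed, with Cldn5 (tight junctions) at 0.85 ± 0.15, Flt1 (a VEGF receptor) at 0.42 ± 0.07, Itm2a at 0.41 ± 0.07 and Esam at 0.34 ± 0.09, and the part of endothelial content in the Icam2 value was not tested. The highest Icam1 value, 3.43 CPM in WT replicate 2 at 15 min, was in the library with the highest endothelial score, 0.56.

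Of 10 other cytokine and acute phase genes Lif, a cytokine of the IL-6 family, rose at 15 min, with a log2 fold change of 0.76 ± 0.21 against naive mice (quasi-likelihood test, FDR = 0.0400), from 0.639 ± 0.0910 to 1.14 ± 0.289 CPM in WT and from 0.718 ± 0.0365 to 1.16 ± 0.332 CPM in Tob-KO. That call was kept in 17 of 31 alternative settings. Ch25h, whose product makes an oxysterol that restrains inflammatory signalling, was lower in Tob-KO than in WT at 15 min by 1.58 ± 0.38 on the log2 scale (exact test, FDR = 0.0296), at 0.258 ± 0.0990 CPM against 0.766 ± 0.209 CPM. It missed the threshold in DESeq2 (adjusted p = 0.272), and without WT replicate 2 (exact test, FDR = 0.0568), WT replicate 3 (0.261), Tob-KO replicate 2 (0.352) or Tob-KO replicate 3 (0.250). Ch25h was the only gene of the 7 pathway lists that passed the study's criteria for a genotype difference. Lcn2, of the same list, did not pass here, whereas the paper reports it as lower in Tob-KO mice by sequencing, PCR and immunoblot. At 15 min Lcn2 had 11, 19 and 148 counts in WT and 9, 1 and 3 in Tob-KO. Of 7 astrocyte markers 2 rose at 15 min and at 1 h, where the list medians were 0.09 and 0.00 on the log2 scale: Aqp4 by 0.32 ± 0.05 at 15 min and 0.22 ± 0.05 at 1 h, and Gja1 by 0.23 ± 0.04 and 0.16 ± 0.04. Of the endothelial markers, Ly6a was lower at 1 h than in naive mice by 0.34 ± 0.10, a call kept in 13 of 30 alternative settings, and Ly6c1 by 0.36 ± 0.09. Of 10 hippocampal neuron markers 1 passed, Dsp, which was lower at 15 min than in naive mice by 0.55 ± 0.16 (quasi-likelihood test, FDR = 0.0470). That call was kept in 12 of 31 alternative settings.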

How the data were processed

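The authors purified poly(A) RNA, made directional libraries, mapped 24 of them to GRCm38 with STAR (2.6.1d) and counted reads per gene with HTSeq (0.9.0). They deposited raw counts, whole numbers without normalization, for 47593 genes. The strand setting and the handling of reads shared between genes are not given in the sources used here. Groups came from the sample labels. The members, the gene lists and the alternatives were chosen with earlier results of these data known.

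Counts were scaled by TMM in edgeR 4.0.16 (R 4.3.3), and CPM are such scaled values over 24 libraries. Genotypes were compared at each time over 6 libraries with the study's settings: at least 0.2 CPM in 2 libraries, edgeR's exact test, a Benjamini-Hochberg FDR and a p of up to 0.05, and a change of 2-fold or more. At 15 min these settings called 102 genes, more than the paper reports, and the reason was not tested. Dispersion was estimated without a design matrix, a choice made after the data were seen, and 0 members were called either way. Time, interaction and mean genotype differences used edgeR's quasi-likelihood test over 24 libraries in 8 groups and FDR alone. Standard errors come from the quasi-likelihood test. DESeq2 1.42.0 was an alternative. Fold changes smaller than their standard error are given as intervals, except those of C3. All tests adjusted over every gene tested. The steps were tested on simulated data.

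The genes named were the members, Tob1, up to 4 genes per list and comparison that passed (of the largest change), and the 3 genes most like each member with at least 10 counts in every library. Il33 and Lcn2 were named besides these. Coordinates are 1-based, from GENCODE's annotation of GRCm38. The PCR reads carried no molecular identifiers, and limits from a count of 3 cover counting error only. The series' design text describes the 3 samples of a group as biological replicates. The chi-square of the counts of 2 libraries of a group was 3.50 to 21.6 per degree of freedom over 24 pairs, so none was counted as a repeat. Promoters of the members were searched for several motif spellings, and no match is reported, since a spelling would have been chosen after its matches were seen.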

Additional observations from a re-analysis of the deposited data

How the results depend on the processing

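The number of members called, without Il1rl1 and C3 where genotypes were compared, was recomputed in 273 settings over 11 comparisons and stayed at 0 in 272. The exception was FDR alone, added after seeing the data, which called 1 member, Lyz2, at 1 h. The log2 fold change of Lyz2 at 1 h was 0.77 to 0.78 in the other settings. Its FDR was over 0.05 with the quasi-likelihood test (0.371), with dispersion from all 24 libraries (0.303), without Tob-KO replicate 2 at 1 h (0.101) and without Tob-KO replicate 3 (0.0524). Leaving out 1 library gave 0.69 to 0.88 and an FDR of at most 0.05 in 4 of 6 fits. The cause was not tested.

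Same-numbered libraries of 2 groups correlated at -0.418 to 0.384, and in 0 of 28 pairs of groups was every correlation over 0.1. Differently numbered libraries were not correlated for reference, so whether the replicate numbers mark pairs was not settled. With the replicate number as a block, 0 members were called in each comparison, and Lyz2 at 1 h had a log2 fold change of 0.78 and an FDR of 0.470. Genes called at 15 min between genotypes went from 102 to 6 under the block, those of naive mice from 4 to 1, those at 1 h from 6 to 0 and those at 3 h from 5 to 0.

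Among values at or over their standard error, and the genotype differences of C3, those that changed sign on leaving out 1 library were Il1rl1 at 3 h against naive mice (-0.0497 to 0.857), the interaction of Il1rl1 at 3 h (-0.0736 to 1.74), Ccl3 at 1 h against naive mice (-1.60 to 0.0624), Icam1 at 15 min against naive mice (-0.0106 to 0.356), and C3 between genotypes at 1 h (-0.214 to 0.0469) and at 3 h (-0.238 to 0.620). Of 71 member values, 34 were smaller than their standard error, and 29 of these changed sign in some setting. The log2 fold change of C3 at 15 min was 0.87 to 2.05, highest without WT replicate 2, and that of Il1rl1 at 3 h 1.16 to 2.39, highest without WT replicate 3.

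The called genes of the pathway and marker lists kept their direction in every setting run. At 15 min Ch25h passed in 5 of 12 settings, S100a8 in 7 of 12 and Esam in 24 of 31.

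Counts over all genes depended more on the settings. Between genotypes, the quasi-likelihood test called 1 gene in naive mice, 0 at 15 min, 0 at 1 h and 1 at 3 h, against 4, 102, 6 and 5. FDR alone gave 7 genes for naive mice, 22 for 1 h and 12 for 3 h. DESeq2 called 35 at 15 min, and dispersion from all 24 libraries 16 at 15 min and 1 at 1 h. Against naive mice, 848 genes at 15 min became 35 with a 2-fold limit, 1298 with DESeq2 and 103 with only the libraries compared. Libraries with a choroid plexus score below 0 were an alternative added after seeing the data. They included 1 naive library of each genotype and 1 Tob-KO library at 15 min, so no count of genes is given for them. At 1 h 1148 became 50 with the 2-fold limit. The mean genotype difference called 82 genes, 4 with a 2-fold limit, 281 with DESeq2 and 50 with the choroid plexus score as a covariate. The interaction at 15 min called 1 gene without a filter and 1 with only the libraries compared. Leaving out 1 library gave 4 to 53 genes in naive mice, 30 to 252 at 15 min, 4 to 155 at 1 h and 3 to 16 at 3 h between genotypes, 317 to 1315 at 15 min and 572 to 1262 at 1 h against naive mice, and 31 to 135 for the mean genotype difference. The alternative with a choroid plexus score below 0 could not be fitted for the 1 h contrasts or the mean genotype difference, because no Tob-KO library at 1 h was below 0. Depth limited Tnf, Ccl2 and Ccl4, which had 5 counts at most.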
